A study of Mus musculus with 15 samples.

Results

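A set of 491 genomic regions entered the strongest DNase hotspots after 8 h of lipopolysaccharide (LPS) in Ikzf KO macrophages and in control macrophages alike. They were 1.71% of the 28702 regions obtained on chromosomes 1 to 19. A hotspot is a stretch of chromatin that DNase I digests readily, listed by the authors for each library with the highest tag density inside it. Each of the 10 lists at 0 h and 8 h was ranked by that highest density and shortened to an equal number of its strongest hotspots (the WT replicate 1 list at 0 h was shorter), and hotspots that shared at least 1 bp were merged into regions. A region was a member if it was in every list at 8 h, 2 of KO and 3 of controls, and in no list at 0 h. The highest tag densities at 0 h and 8 h therefore chose the members, and values at these times are given as a description, without a test. The lists at 3 h took no part in the choice.

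All macrophages were derived from bone marrow of C57BL/6J mice and were taken at 0, 3 or 8 h of LPS, given at 10 ng/ml. Each time had 2 libraries of the genotype labelled Ikzf KO, 2 of wild type (WT) and 1 of a littermate control, 15 libraries in all. WT and littermate libraries are called controls. The titles name 100 U of DNase for WT replicate 2 and 80 U for the other libraries. The labels do not say which Ikzf allele was altered, whether the deletion was limited to a cell type, or whether replicates were separate animals or cultures. The p-values thus reflect spread among libraries, and part of it may be technical.

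LPS comes from the cell envelope of Gram-negative bacteria and is sensed by Toll-like receptor 4. Signalling from this receptor activates transcription factors of the NF-kB, AP-1 and interferon regulatory factor families, which act at promoters and enhancers that PU.1 and other lineage factors hold accessible in macrophages. Some enhancers become accessible only after such a stimulus. Ikaros, the zinc finger protein named in the series title, binds DNA and recruits chromatin remodelling complexes, and it is best known for its role in lymphocyte development.

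Libraries differed in ways that bear on every value below. Deposited lists held 15042 to 127374 hotspots on chromosomes 1 to 19, and the WT replicate 1 lists at 0 h (16572 hotspots) and 3 h (15042) were used whole. Highest tag densities were higher in KO libraries at all times than in control libraries at 0 h and 3 h. The median of the hotspots used was 23.6 and 23.4 in KO at 0 h, against 7.91 to 9.57 in the controls, and 25.7 and 25.3 in KO at 3 h, against 8.77 to 11.5. At 8 h it was 29.3 and 29.4 in KO, against 24.6 to 26.4 in the controls. How libraries were scaled is not given in the sources used here. Libraries are therefore compared by rank within lists of equal length, where rank 1 is the strongest hotspot, and densities are the authors' own values. A hotspot that is stronger in a bulk library can come from more cells with open chromatin or from more open chromatin per cell, which cannot be told apart. The regions were not assigned to genes, and macrophage marker genes were not checked, because no annotation of the files' build (mm9) was used here.

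The strongest member was chr11:116238019-116239395 (build mm9), with a mean rank of 946.8 over the 8 h lists. Its highest tag density at 8 h was 63.1 and 66.9 in KO, against 84.3 and 89.9 in WT and 84.3 in the littermate. At 3 h it had 72.2 and 75.8 in KO, against 15.0 and 31.4 in WT and 24.4 in the littermate. The control libraries were higher than KO at 8 h and the KO libraries were higher at 3 h, with no overlap at either time. By rank this held at 8 h (1737 and 1480 in KO, against 886, 280 and 351 in controls), while at 3 h the littermate (612) ranked above both KO libraries (655 and 634). At 0 h the region had densities of 8.91 and 11.5 in KO and 5.65 in the littermate and was in neither WT list.

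The next member was chr5:105720828-105723885. Its density at 8 h was 57.8 and 57.2 in KO, against 42.5 and 45.1 in WT and 55.6 in the littermate. By rank the KO libraries, at 2169 and 2176, lay between the littermate (1524) and WT (4441 and 2570). It had 27.7 and 36.2 in KO at 3 h, against 12.02 and 19.5 in WT and 19.4 in the littermate. By rank the order at 3 h was different, with 6622 and 3781 in KO against 4564, 2363 and 1209 in the controls, so WT replicate 2 and the littermate ranked above both KO libraries. At 0 h it was listed in KO alone, at 4.14 and 4.48. Of the 12 strongest members, it had the lowest KO densities at 0 h among those that KO listed then.

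Several of the strongest members ranked higher in KO at 8 h. The region chr10:18796925-18798606 had 72.3 and 80.7 in KO at 8 h, against 42.1 and 36.1 in WT and 48.6 in the littermate. Its 8 h ranks were 1244 and 927 in KO, against 4492, 4278 and 2212 in the controls. In KO this region had 59.6 and 59.4 already at 3 h, whereas the controls had 10.3, 15.5 and 14.0, so the groups did not overlap at either time.

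The region chr13:75961761-75963494 had 74.5 and 79.5 in KO at 8 h, against 36.1 and 32.3 in WT and 45.6 in the littermate. At 3 h it had 50.1 and 56.6 in KO, while the littermate had 5.42 and neither WT list held it. It was thus among the 3 h lists of equal length in KO only. The region chr2:154399500-154401151 had 3 h values well below its 8 h values in both genotypes. In KO it had 19.03 and 18.7 at 3 h, and 56.9 and 68.6 at 8 h. In the controls it was in neither WT list at 3 h and had 6.77 in the littermate at 3 h, and it had 41.8, 41.0 and 39.0 at 8 h. By rank the littermate (12051) was next to KO (12254 and 12098) at 3 h.

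The region chr17:34998604-35000299 was the strongest member that no deposited 0 h list held. At 3 h it had 17.1 and 19.5 in KO, against 6.01 and 9.13 in WT and 9.93 in the littermate. Its 3 h ranks overlapped, with 14440 and 11419 in KO against 12498, 11222 and 6298 in the controls, the littermate ranking best. At 8 h it had 56.1 and 51.7 in KO, against 42.5 and 35.8 in WT and 43.6 in the littermate. It was in all 5 of the equally long 3 h lists, so it entered in every series within 3 h. The other 6 of the 12 strongest members lay on chr19:40714005-40715934, chr7:82811290-82813720, chr17:50642760-50644651, chr12:8378102-8379573, chr18:62858989-62860257 and chr5:91039903-91042257. Their 8 h densities were 40.1 to 65.9 in KO and 29.8 to 54.6 in the controls. Of these 6, the chromosome 19 region had its higher densities in the controls, with 45.2 and 40.1 in KO against 49.8, 52.1 and 54.6.

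**Figure D1:**
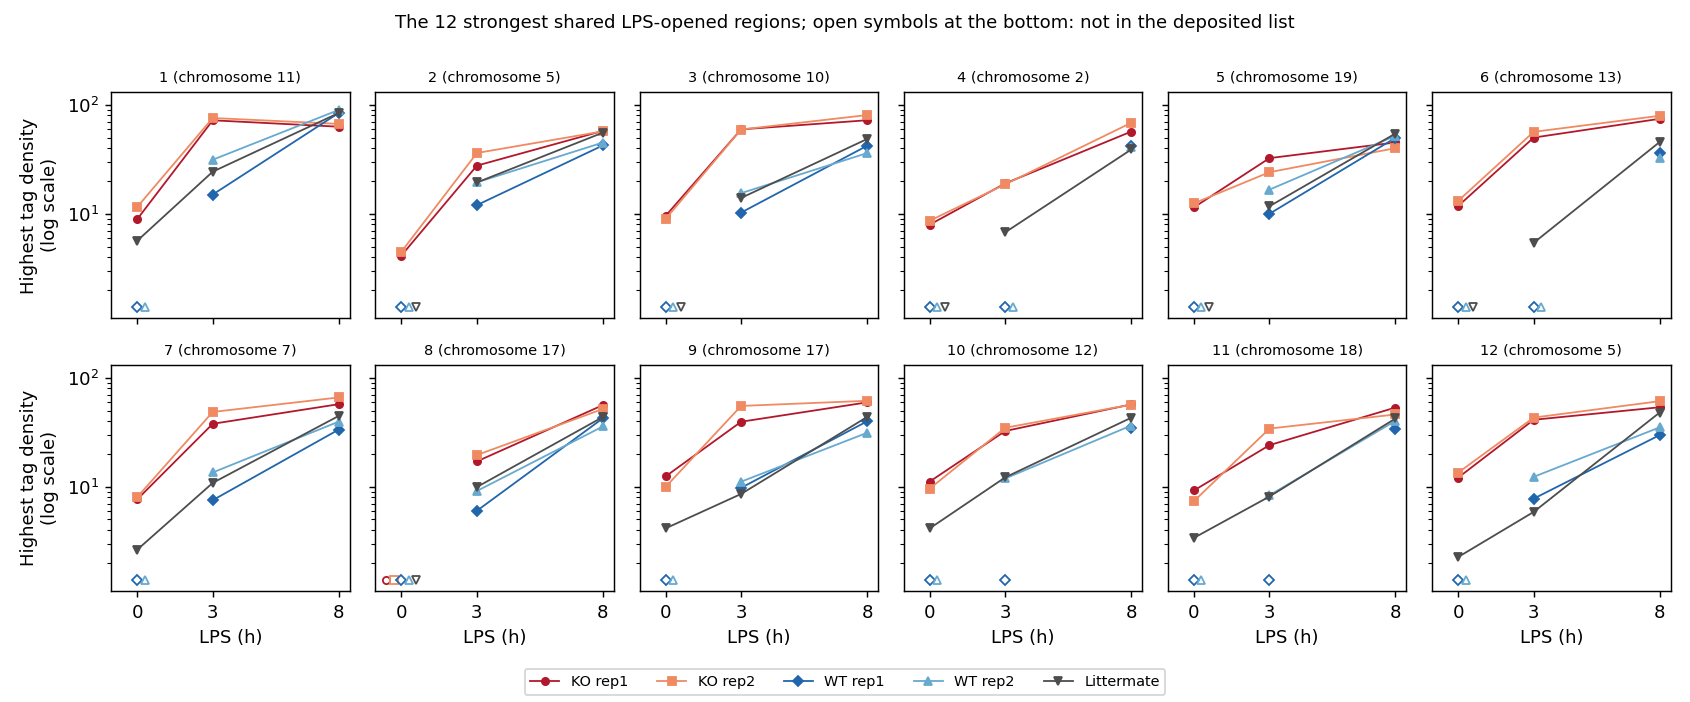
Highest tag density (log scale, the authors' values) at 0, 3 and 8 h of LPS in the 12 regions of best mean rank at 8 h, with 1 line per series of libraries. Open symbols at the bottom mark libraries whose deposited list has no hotspot there. The first panel, on chromosome 11, has the 3 control libraries above KO at 8 h (84.3 to 89.9, against 63.1 and 66.9 in KO), and the panel numbered 3, on chromosome 10, has KO above the controls at 3 h and 8 h.

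Membership ended where a list was cut, and the weakest members were close to that edge. The last hotspot used at 8 h had a density of 18.1 and 18.3 in KO, against 14.4, 14.6 and 15.0 in the controls. The member with the poorest single rank was the region chr10:26836149-26838535, at 17236 in WT replicate 1, the last rank but 1. Next came the region chr2:5313125-5314680 (17216 in WT replicate 1) and the region chr15:62213280-62214925 (17206 in the littermate). They were followed by the region chr17:71643282-71645164 (17189 in KO replicate 2) and the region chr10:118417823-118419204 (17186 in KO replicate 1).

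Regions just outside differed from these by a few ranks in 1 list. The region chr8:118010549-118011700 was at rank 17238 in WT replicate 2 at 8 h and so was missed by 1 rank. The region chr3:95459183-95460397 (17241) and the region chr8:95404292-95406426 (17245) failed in the same library. The region chr6:131217957-131221017 failed because WT replicate 2 held it at 0 h at rank 17228, and the region chr2:170149300-170151218 because the littermate held it at 0 h at rank 17226. At 8 h, 71 and 39 regions missed membership through KO replicate 1 or 2 alone, against 78, 64 and 22 through WT replicate 1, WT replicate 2 or the littermate alone. At 0 h, 52 and 39 missed it through KO replicate 1 or 2 alone, against 44, 54 and 85 through these 3 control libraries.

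Members were weaker at 8 h than the hotspots used as a whole, least so in the littermate. Their median highest density was 25.7 and 26.8 in KO, 21.1 and 21.5 in WT and 24.3 in the littermate. For all hotspots used it was 29.3 and 29.4 in KO, 26.4 and 24.6 in WT and 24.6 in the littermate. The median rank of members was 10635 and 10121 in KO, against 11276 and 10393 in WT and 8828 in the littermate. The KO medians lay between those of the controls, and the mean of the library medians differed by 212.3 ranks, KO minus controls, with SDs of 363.5 (KO, n = 2) and 1240 (controls, n = 3). Taken per member, the median difference in mean rank was -210.3, so the sign depended on the summary. Regions in all 10 lists at 0 h and 8 h, by contrast, had median ranks of 5056 and 5033 in KO and 4478 to 4669 in the controls. Among the first 5000 ranks were 71 and 73 members in KO (14.5% and 14.9%). In WT there were 17 and 33 (3.46% and 6.72%), and in the littermate 77 (15.7%). Of the regions in all 10 lists, 49.6% and 49.7% were among these ranks in KO, and 53.2% to 54.8% in the controls.

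Single members differed in rank between the genotypes much more than the medians did. In 135 members (27.5%) both KO libraries ranked above all 3 controls at 8 h, and in 126 (25.7%) both ranked below all of them. Among the 11599 regions in all 5 of the 8 h lists these shares were 24.5% and 27.2%, so the members were close to that background in both directions. Over the 491 members the mean ranks in KO and in controls had a Spearman rho of 0.36 and a Pearson r of 0.40. This is a description across regions, which share the 5 libraries and were all truncated at the same rank.

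The members with the largest rank differences had KO and control libraries far apart. The region chr9:40540680-40542248 was at ranks 2982 and 2700 in KO, against 13496, 13554 and 15322 in the controls, with densities of 49.9 and 52.2 in KO and 16.3 to 17.7 in the controls. The regions on chr11:67203646-67205284, chr3:50205471-50207781 and chr5:36960520-36962247 had mean ranks of 3681, 4330 and 2999 in KO, against 14781, 14441 and 13096 in the controls. In these 4 regions KO densities at 8 h were 41.3 to 52.2, against 15.0 to 20.3 in the controls. All 4 were in both KO lists at 3 h, and the chromosome 9 and chromosome 5 regions were in no control list of equal length at that time.

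In the other direction, the region chr11:83363445-83364873 was at ranks 15753 and 14870 in KO at 8 h, against 5597, 3702 and 3026 in the controls. Its densities were 19.3 and 20.4 in KO at 8 h, against 36.5, 38.5 and 43.0 in the controls. At 3 h it had 25.7 and 31.6 in KO, so both KO libraries held higher values at 3 h than at 8 h, whereas the controls had 9.52, 11.1 and 10.8 at 3 h. Its 3 h ranks overlapped, with 7517 and 4985 in KO against 6483, 7586 and 4946 in the controls. The regions on chr17:71643282-71645164, chr9:123882984-123884043 and chr15:82959688-82960920 had mean ranks of 16838, 14295 and 15668 in KO, against 6507, 4235 and 5617 in the controls. The chromosome 17 region was in no KO list of equal length at 3 h, and neither was the chromosome 15 region, while WT replicate 2 and the littermate held the chromosome 15 region at ranks 5350 and 5327.

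**Figure D2:**
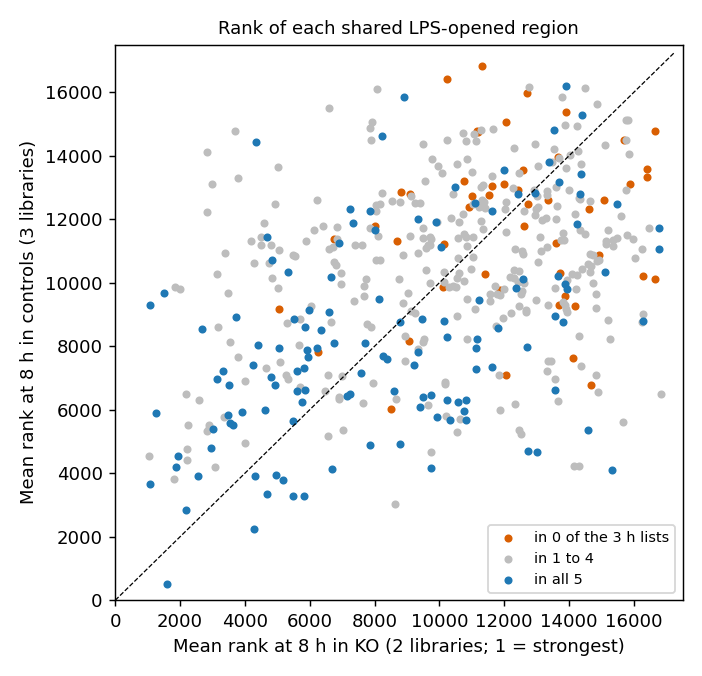
Mean rank at 8 h in KO (x axis, 2 libraries) against controls (y axis, 3 libraries), 1 point per region, where rank 1 is the strongest and the dashed line marks equal ranks. Colours give how many of the 5 lists at 3 h held the region. Points lie on both sides of the line, with 251 regions ranked better on average in KO and 240 in the controls.

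Before LPS the members were mostly listed in KO at low ranks, while the control lists differed. The deposited 0 h lists held 467 and 462 members (95.1% and 94.1%) in KO, against 0 and 36 in WT and 285 (58.0%) in the littermate. Of all regions, these lists held 96.4% and 96.2% in KO, against 53% and 61.7% in WT and 84.7% in the littermate. Nothing is read from this, since the rule removed regions strong at 0 h. The value of 0 in WT replicate 1 follows from the rule, since that list was used whole. Of 455 regions that entered the control lists at 8 h but neither KO list, the deposited lists held 80.7% and 77.8% in KO, against 0% and 7.25% in WT and 54.1% in the littermate. The deposited lists on chromosomes 1 to 19 had 107045 and 108292 hotspots in KO at 0 h, against 16572, 20628 and 61651 in the controls, and the part of these lengths in the difference was not tested. Members listed at 0 h had median ranks of 29181 and 29200 in the deposited KO lists, with median highest densities of 9.23 and 8.96, against 25.7 and 26.8 for all members in KO at 8 h.

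Both deposited KO lists and no control list held 173 members at 0 h (35.2%), against 10.4% of all regions. No deposited 0 h list held 21 members (4.28%), against 1.5% of all regions. These 21 were also all of the members that both KO lists lacked. Nothing is read from these shares, since the rule removed regions strong at 0 h, including every region in the WT replicate 1 list. After the chromosome 17 region at 34998604, the strongest of the 21 were chr5:66432096-66433454, chr2:129141247-129142420 and chr4:144863438-144865203. The chromosome 5 region had 46.9 and 41.0 in KO at 8 h, against 40.1, 31.2 and 36.6 in the controls. The chromosome 2 region had 38.0 and 38.4 in KO, against 21.4, 24.99 and 28.6, and the chromosome 4 region 33.8 and 28.5 in KO, against 26.4, 25.3 and 23.6. In all 3 regions both KO densities were above the control densities at 8 h, but by rank this held for the chromosome 2 region alone. The chromosome 5 region was at ranks 3410 and 4618 in KO, against 4820, 5692 and 4317 in the controls, and the chromosome 4 region at 6669 and 9093 in KO, against 8508, 8119 and 9156.

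**Figure D3:**
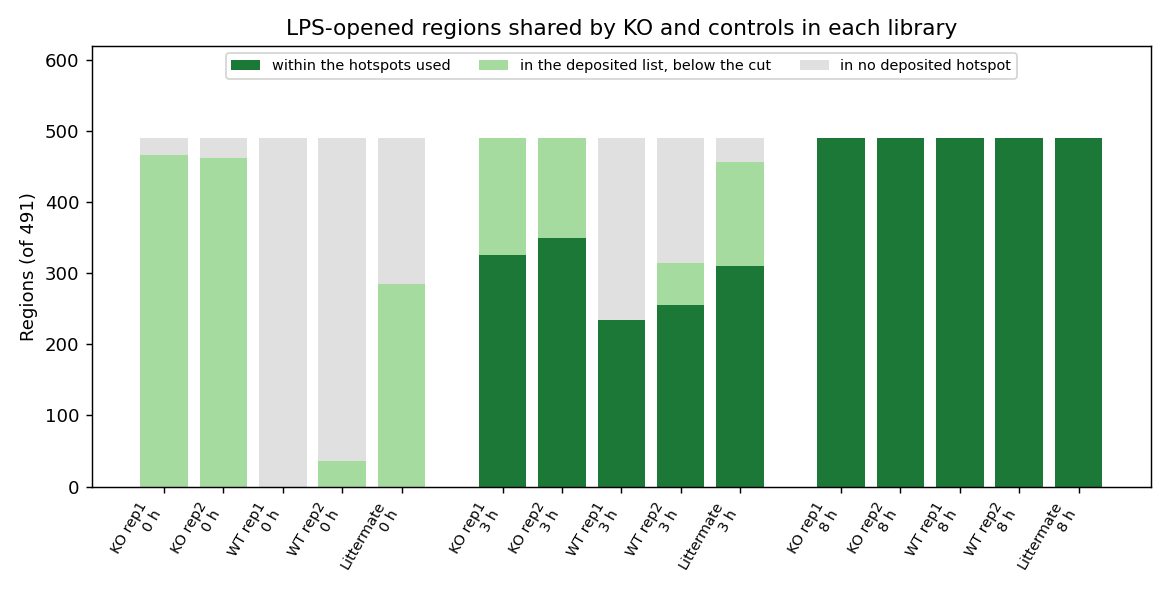
Number of the 491 members in each library (x axis, KO left of the controls within each time) that lay within the hotspots used (dark), in the deposited list below the cut (light) or in no deposited hotspot (grey). All members are dark at 8 h and none at 0 h because the rule required it, while the 3 h bars were free to vary from 235 in WT replicate 1 to 350 in KO replicate 2.

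At 3 h, members were often among the strongest hotspots already. Each 3 h list was shortened to 15042 hotspots, the length of the shortest. They held 326 and 350 members in KO, which is 66.4% (Wilson 95% interval 62.1 to 70.4) and 71.3% (67.1 to 75.1). In WT they held 235 and 255 members, which is 47.9% (43.5 to 52.3) and 51.9% (47.5 to 56.3). The littermate list held 310, or 63.1% (58.8 to 67.3). Both KO shares were above all 3 control shares, and the littermate lay closer to KO than to WT. These intervals cover counting only.

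The share of members at 3 h averaged 68.8 ± 3.46% in KO (SD, n = 2) and 54.3 ± 7.91% in controls (SD, n = 3), a difference of 14.5 percentage points. The difference did not pass the test (exact permutation of the KO label over 5 libraries, two-sided p = 0.2, adjusted p = 0.25 over 3 tests), and 10 arrangements cannot give a p below 0.1. All other regions were also in more KO than control lists, with 51.0% and 50.5% in KO against 46.6%, 46.3% and 46.0% in the controls, a difference of 4.48 points. Ranked by Z-score, where 517 regions met the rule, the groups overlapped at 3 h, with 57.3% and 64.0% in KO against 45.8% to 59.6% in the controls. If the density steps reflect depth, as set out with the processing, relative depth at 3 h was 0.848 and 0.826 in KO, against 0.947 and 0.597 in WT and 0.525 in the littermate. The part of depth and of list strength in the difference was not tested.

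Members were in the 3 h lists more often than the remaining regions in every library. Their share exceeded that of all other regions by 12.03 points on average, and by 1.26 points in WT replicate 1, the smallest difference. This was higher in 5 of 5 libraries (exact sign-flip permutation, two-sided p = 0.063, the smallest that 32 arrangements can give, adjusted p = 0.188 over 3 tests), and so it did not pass 0.05. In WT replicate 1 members were not above the other regions when hotspots were ranked by Z-score or by mean density, in the lists as deposited, or with 50% of a region covered, where WT replicate 2 was not either. The other regions include those in all 10 lists at 0 h and 8 h, of which the 3 h lists held 91.6% to 96.4%, more than of members. These made up 8446 of the 11599 regions in all 5 of the 8 h lists. However, a region needed only 1 of the 10 lists to be counted, whereas a member needed all 5 lists at 8 h. No 3 h list held 31.3% of the other regions, against 10.2% of members. The part of this rule in the excess was not tested, so nothing particular to LPS-opened regions is read from the excess.

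**Figure D4:**
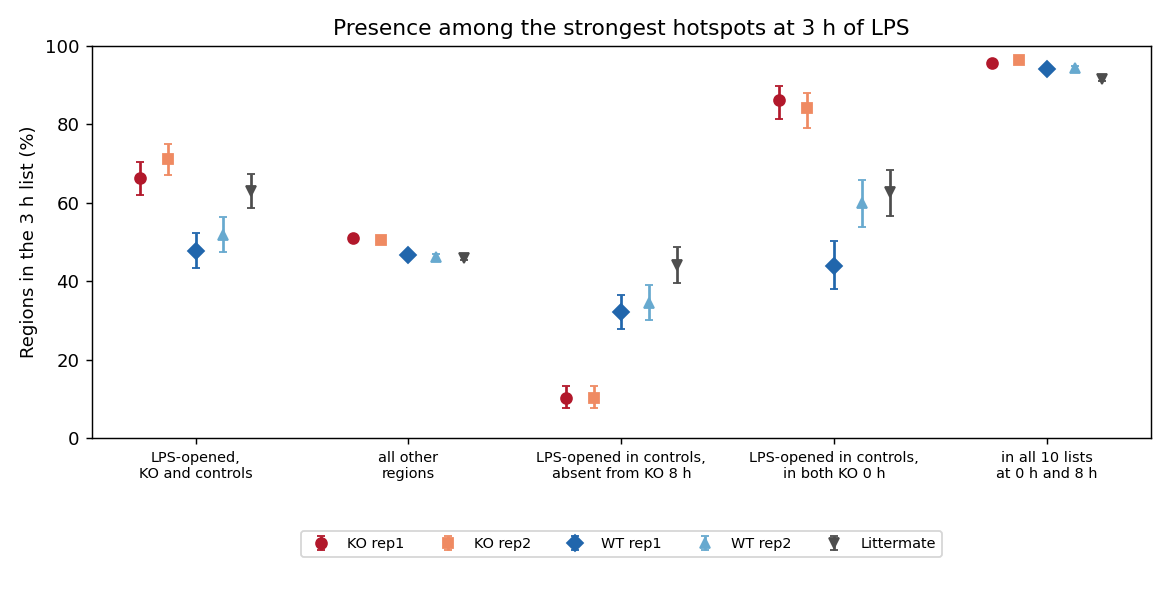
Share of regions (y axis, percent) within the 15042 strongest hotspots at 3 h for members and 4 other sets of regions, 1 symbol per library with Wilson 95% intervals and KO left of the controls. For members the KO symbols lie at 66.4% and 71.3% and the control symbols at 47.9% to 63.1%. The regions absent from KO at 8 h are low in KO (10.3% in both libraries) and those in both KO lists at 0 h are high in KO, because KO lists at 8 h and 0 h chose them.

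Members split widely in how many of the 3 h lists held them. All 5 lists held 129 members (26.3%), against a background of 30.1% of all regions, and no list held 50 members (10.2%), against 31% of all regions. Both KO lists and no control list held 43 members (8.76%), against 5.39% of all regions. All 3 control lists and no KO list held 13 members (2.65%), against 2.07% of all regions. Counting 1 genotype in full, both KO lists held 299 members (60.9%), against 46.2% of all regions, and all 3 control lists held 157 (31.98%), against 34% of all regions.

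The strongest members at 8 h were present at 3 h more often than the weakest in every library. The members in all 5 of the 3 h lists had a median of 7921 for their mean rank at 8 h, and those in none had a median of 12243. Among the strongest 164 members, ranked by their mean at 8 h, 90.9% and 92.1% were in the KO lists at 3 h, against 64.0% and 73.2% in WT and 80.5% in the littermate. Among the middle 164 members the shares were 64.0% and 73.2% in KO, against 47.0% and 45.1% in WT and 53.7% in the littermate. Among the weakest 163 members the shares were 44.2% and 48.5% in KO, against 32.5% and 37.4% in WT and 55.2% in the littermate. In the littermate the share was thus no lower in the weakest set than in the middle one. Among these weakest members the littermate therefore exceeded both KO libraries, unlike among the strongest. As the ranks at 8 h helped to choose the members, these values are a description.

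**Figure D5:**
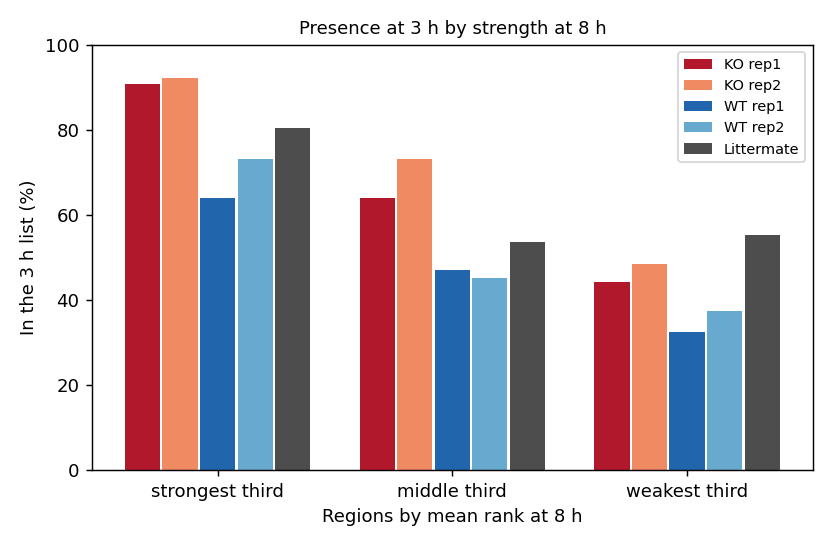
Share of members in the 3 h list (y axis, percent), for members grouped into 3 sets by mean rank at 8 h (164, 164 and 163 regions), with 1 bar per library and KO left of the controls. The KO bars are at 90.9% and 92.1% in the strongest set and at 44.2% and 48.5% in the weakest, where the littermate bar is the tallest at 55.2%.

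The strongest members present in every 3 h list were the chromosome 11 region at 116238019, the chromosome 5 region at 105720828, the chromosome 10 region at 18796925 and the chromosome 19 region at 40714005. The strongest members absent from all of them lay on chr8:27176563-27177795, chr7:137982353-137983936, chr18:61610717-61612523 and chr17:87348222-87350385. The chromosome 8 region had 10.1 and 9.76 in KO at 3 h and was in no deposited control list at that time, and at 8 h it had 32.6 and 27.0 in KO, against 32.8, 32.3 and 30.0 in the controls. The deposited control lists held it at 8 h alone, and KO listed it at 0 h, at 3 h and, with higher densities, at 8 h. Its deposited KO ranks at 3 h were 28377 and 28194. The deposited WT lists at 3 h, of 15042 and 19384 hotspots, were too short to hold such ranks, while the littermate list had 50187. The part of list length in this difference was not tested. In the deposited 3 h lists, without shortening, both KO libraries held all 491 members, against 235 and 315 in WT and 457 in the littermate. Of the other regions, these longer KO lists held 97.3% and 97.2%.

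Members were shorter than regions that were open throughout. Their median length was 1756 bp (interquartile range 1386 to 2373), against 2271 bp for regions in all 10 lists. Merged regions cover the hotspots of all lists that hold them, so regions in 10 lists are longer partly by construction. The strongest hotspot of a member had a median width at 8 h of 1532 and 1552 bp in KO, against 1022 and 1100 bp in WT and 1473 bp in the littermate. The WT libraries were thus apart from KO and from the littermate, which lay closer together. Regions in all 10 lists had the same split, with 1997 and 2026 bp in KO, against 1292 and 1356 bp in WT and 1741 bp in the littermate. The split was thus not particular to members, and in every library these hotspots were wider than those of members. The longest members were chr2:129188574-129197572 (8999 bp), chr16:84701029-84709614 (8586 bp) and chr5:91331419-91338516 (7098 bp). The chromosome 5 region was in all 5 of the 3 h lists, as was the chromosome 16 region, and the chromosome 2 region was in 3.

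Members were spread over all 19 chromosomes. They made up 2.71% of the regions on chromosome 16 (29 of 1071) and 2.49% on chromosome 14 (27 of 1084), the highest shares, and 0.868% on chromosome 9 (13 of 1498), the lowest. Chromosome 2 had the most members, 54 of its 2424 regions (2.23%). The median distance from a member to the nearest region in all 10 lists was 32915 bp. Within 5 kb of such a region lay 76 members (15.5%), and 96 (19.6%) were more than 100 kb from any.

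Some members lay near each other. Another member lay within 50 kb for 113 members (23.0%) and within 10 kb for 48 (9.78%). Of the regions in all 10 lists, 5.88% lay within 50 kb of a member and 1.65% within 10 kb. Chained at gaps of up to 50 kb, the members formed 47 pairs, 2 groups of 3, 2 groups of 4 and 1 group of 5, and 378 stood alone.

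The largest groups were looked at after their sizes were seen. The group of 5 lay on chr4:144842159-144874091, a span of 31.9 kb that also held 2 regions in all 10 lists. Both KO lists at 3 h held all 5 of its members, while 0 to 2 of the control lists held each. The mean ranks at 8 h of its members were 5274 to 15838 in KO and 7106 to 14040 in the controls. A group of 4 on chr18:65459964-65542826 had all 3 control lists at 3 h for 3 of its members and 2 for the other. Over KO and controls together, its members were in a mean of 4.25 lists at 3 h. All 4 of its members ranked better in KO at 8 h, as did 251 of all 491 members. These 4 had mean ranks of 3524 to 10090 in KO against 6790 to 14488 in the controls. A group of 4 on chr2:129141247-129237085 was uneven within itself. Its member from 129163582 to 129164700 was in no KO list and in all 3 control lists at 3 h, and the 8999 bp member beside it was in both KO lists and 1 control list.

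A second set of 455 regions also entered all 3 control lists at 8 h from none at 0 h but was in neither KO list at 8 h. In the control lists at 3 h, members were found more often than this set, with 47.9%, 51.9% and 63.1% of members against 32.1%, 34.5% and 44.2% in WT replicate 1, WT replicate 2 and the littermate. The difference was 17.4 points and was in the same direction in 3 of 3 control libraries (exact sign-flip permutation, two-sided p = 0.25, the smallest possible with 3 libraries, adjusted p = 0.25 over 3 tests). With 50% of a region covered, it was in that direction in 2 of 3. Members were also stronger in the controls at 8 h, with median ranks of 11276, 10393 and 8828, against 13021, 12493 and 10782 for regions absent from KO. The part of that strength in the difference at 3 h was not tested. Members had a median length of 1756 bp and the regions absent from KO 1315 bp. Members cover KO hotspots used at 8 h and the other set does not, so members are longer partly by construction. The strongest hotspot at 8 h had a median width of 1022, 1100 and 1473 bp in members in WT replicate 1, WT replicate 2 and the littermate. In the regions absent from KO it was 919, 962 and 1309 bp. Another member lay within 50 kb for 23.0% of members, and a member for 15.6% of the regions absent from KO. Within 10 kb these shares were 9.78% and 5.27%. The median distance to a region in all 10 lists was 32915 bp for members and 36289 bp for regions absent from KO.

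Another set of 252 regions entered the control lists in the same way but was in both KO lists at 0 h. At 3 h, WT replicate 1, WT replicate 2 and the littermate held 44.0%, 59.9% and 62.7% of it, values that overlap those of the members. Its regions lay closer to regions in all 10 lists, at a median of 20448 bp. Within 5 kb lay 21.8% of them, against 15.5% of members and 13.8% of the regions absent from KO.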

How the data were processed

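DNase-seq libraries of bone marrow derived macrophages were compared through 1 deposited hotspot list per library. Isolated nuclei received DNase I, and fragments of selected size were sequenced from one end, per the labels' protocols. Build mm9 and the tool CASAVA are named, per the submitters' processing notes; which aligner, hotspot caller and threshold were used is not given in the sources used here. The tag densities (highest and mean per hotspot) are a signal, per the file headers, with a Z-score, a score, beside them; the deposited p-value was not used.

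Chromosomes 1 to 19 were kept first. Hotspots were ranked by highest density, with ties resolved by mean density and then position, and coordinates were counted as inclusive. A region took the rank and density of its strongest hotspot in a list. Depth is unknown. Highest densities are whole multiples of 1 step per list (100% of hotspots within 0.05 steps); if libraries were scaled to 1 total, which is not stated, relative depth is the inverse of the step, 0.525 to 1. The lowest deposited Z-score was 3.40 to 3.66 in KO lists, 3.65 to 4.54 in littermate lists and 7.98 to 10.6 in WT lists. Presence at 3 h was tested by exact permutation over libraries, with Benjamini-Hochberg adjustment over 3 tests and a threshold of 0.05. The code was tested on simulated lists. Python 3.11.15, pandas 2.3.3, numpy 2.4.6 and scipy 1.17.1 were used.

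Named regions were the 12 of best mean rank at 8 h, the 5 nearest the cut on either side, the 4 with the largest rank differences each way, the 3 longest, and the 4 strongest of those in no deposited 0 h list, in all 3 h lists and in none. The members and this rule were chosen with earlier results of these data known. Gene lists and cell type markers were not used, because no mm9 annotation was used here.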

Additional observations from a re-analysis of the deposited data

How the results depend on the processing

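The number of members depended on list length. It was 491 as reported, 199 with lists of 0.5 times the length and 1170 in the lists as deposited, and it stayed at 447 to 649 under 5 other settings and at 578 to 625 with 1 series left out. Which regions were members also depended on the ranking: of the 491, 271 overlapped a member when hotspots were ranked by Z-score, 381 by mean density, 52 with 0.5 times the length and 21 in the lists as deposited. The median length of members was 2119 bp with 0.5 times the length, 1060.5 bp in the lists as deposited and 1624 to 1756.5 bp with 1 series left out. The difference in median rank at 8 h, 212.3 as reported, was 1295 with 50% covered, -461 with 0.5 times the length, 17571 as deposited, with KO lists the longest, and -321.5 to 603.5 with 1 series left out, where the lowest value came without the littermate. The share of members in every deposited 0 h list was 0% as reported, 26.6% with 0.5 times the length, 17.3% when at least 50% of a region had to be covered, and 0 to 9.71% with 1 series left out. The higher value came without WT replicate 1. The share as reported could only be 0%, since members had to be absent from the WT replicate 1 list at 0 h, which was used whole. The mean 8 h rank of a named region moved by more than its SD over the 8 h libraries for 21 regions by Z-score and for 4 by mean density.

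No comparison at 3 h could pass 0.05, and no mean difference changed sign under the settings run. The count of libraries did change: members were above all other regions in 4 of 5 by Z-score, by mean density and as deposited, in 3 of 5 with 50% covered, and in 3 of 4 without WT replicate 2, without the littermate or without KO replicate 1. WT replicate 1 was not above in each of these settings. The KO minus control difference was 8.74 points by Z-score, 52.5 with 50% covered, 66.1 in the lists as deposited and 31.6 with only the 3 h lists as deposited. It was 11.2 to 18.3 points with 1 series left out. The deposited 3 h lists on chromosomes 1 to 19 held 115966 and 112044 hotspots in KO, against 15042 to 50187 in the controls. With 50% covered, the shares were 66.7% to 72.6% in KO and 5.08% to 35.6% in the controls. The part of list length and of hotspot width in these larger differences was not tested. Members exceeded all other regions by 5.96 to 22.7 points over the settings, and by 7.42 to 13.2 with 1 series left out. They exceeded regions absent from KO by 2.24 points with 50% covered, in 2 of 3 control libraries, and by 15.8 to 21.4 with 1 series left out. With the replicate block (KO minus WT within replicate numbers) the first difference was 18.9 points, from 18.5 and 19.3. The numbers are not stated to pair libraries. Same-numbered deviations correlated at -0.21 at 3 h. With the numbers crossed, a pairing chosen after seeing the data, the differences within pairs were 14.5 and 23.4 points. In both pairs, 69 members were in KO and not in WT. This count and the mean difference are the same for either pairing by construction, so they cannot decide how libraries pair.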

Other observations

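Chromosome X was left out of the comparisons above. When whole lists were shortened to equal length first, 1 of 660 regions on chromosome X met the same rule (0.152%), chrX:68475331-68477336, with a mean rank of 7312 at 8 h, and 3 of the 3 h lists held it.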
